A study of Homo sapiens with 8 samples.

Results

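KDM1A, KDM5A, KDM5B, KDM5C and RCOR1 are genes of the enzymes, and of an enzyme partner, that take methyl groups off lysine 4 of histone H3 (H3K4). They were chosen by name as the enzymes that act against the H3K4 methyltransferases, and all 5 were found among the 19035 gene symbols of the expression table. RNA was measured in KPL-1, an established human breast cancer cell line, made to carry a Cas9 nuclease (iCas9) and treated with doxycycline for 7 days. In 3 libraries the cells carried an empty guide vector (sgEmpty, genotype labelled WT) and in 3 libraries a guide against the methyltransferase gene SETD1A (sgSETD1A, genotype labelled SETD1A knockout); cell line, Cas9 and doxycycline were common to both groups. The series also holds a guide pool counted in 1 library at day 0 (10145466 reads) and 1 at day 14 (10255022 reads), and 0 of its 5995 guides were named for any of the 5 genes. Whether the replicates were separate cultures, and whether the cells were clones or pools, is not given in the labels, and a p-value therefore reflects no more than library-to-library spread, possibly technical.

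Methylation of H3K4 marks active promoters and enhancers and is set by SETD1 and KMT2 enzymes. KDM1A (also called LSD1) is a flavin-dependent oxidase that removes it from monomethylated and dimethylated H3K4, and RCOR1 (CoREST) is the scaffold that holds KDM1A together with histone deacetylases and lets it act on nucleosomes. KDM5A, KDM5B and KDM5C are iron-dependent Jumonji enzymes that act on the dimethylated and trimethylated forms. KDM5B was found as a gene with raised expression in breast cancers, and KDM5A is known from drug-tolerant tumour cells. No histone methylation was measured in the files used here, so every value below is a transcript level or a difference between transcript levels.

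Per library, 11769 to 11961 genes reached 1 TPM (TPM is a transcript level per transcript length scaled to a common total and keeps no sequencing depth). Pearson correlations of log2(TPM + 1) across tested genes were 0.995 to 0.998 within groups and 0.988 to 0.99 between groups. Replicate 1 stood somewhat apart within sgSETD1A, with correlations of 0.9956 and 0.9954 with the others, against 0.9977 between replicates 2 and 3. SETD1A, the target of the guide, was lower in all 3 sgSETD1A libraries, at 9.36 to 11.3 TPM against 17.5 to 18.1 TPM in sgEmpty. The luminal breast markers, with 10 of 10 above a mean of 1 TPM, summed to 15770 to 16860 TPM in sgEmpty and 17760 to 18220 TPM in sgSETD1A, and 6 of them were called higher and 0 lower by the limma test described below, in which 28% of all tested genes were higher and 13.5% lower. The 8 immune markers summed to 1.73 to 2.10 TPM in sgEmpty and 1.62 to 2.31 TPM in sgSETD1A. The 8 basal markers summed to 62.3 to 68.5 TPM and 60.7 to 63.9 TPM, with KRT5 listed at 0 throughout, and members went both ways. Of the 4 basal markers tested 1 was higher (ITGA6, 5.55 ± 0.27 and 8.90 ± 0.882 TPM) and 1 lower (ACTA2, 32.1 ± 1.85 and 22.7 ± 1.75 TPM; SD, n = 3), and TP63, under the filter, stood at 0.479 and 1.18 TPM without overlap. The 9 mesenchymal markers summed to 19.0 to 19.3 TPM and 23.8 to 25.5 TPM, and of 3 tested 1 was higher (FN1, 14.7 ± 0.812 and 19.5 ± 1.41 TPM; SD, n = 3) and 0 lower. These 3 genes and TP63 were named after their values were seen. The part of these marker differences in the results below was not tested. In bulk RNA, fewer cells that express a gene and less RNA per cell cannot be told apart.

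In the sgSETD1A libraries 4 of the 5 transcripts were called higher and 0 lower, each by a small margin. RCOR1 rose 1.21-fold in mean TPM, KDM1A 1.17-fold, KDM5C 1.12-fold and KDM5B 1.10-fold, and KDM5A was not called. Calls came from limma on log2(TPM + 1), fitted to 11885 genes with a mean of at least 1 TPM and called at a Benjamini-Hochberg adjusted p under 0.05. In the same fit 28% of all tested genes were called higher and 13.5% lower, and their median was 0.073 log2, so a small rise was common in these libraries. The rises of RCOR1 and KDM1A were called under all 14 alternative settings, whereas that of KDM5B was called under 8 and that of KDM5C under 5. After median-ratio rescaling, which takes out the common shift, 2 of the 5 genes were called higher, beside 14.9% of all tested genes.

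**Figure D1:**
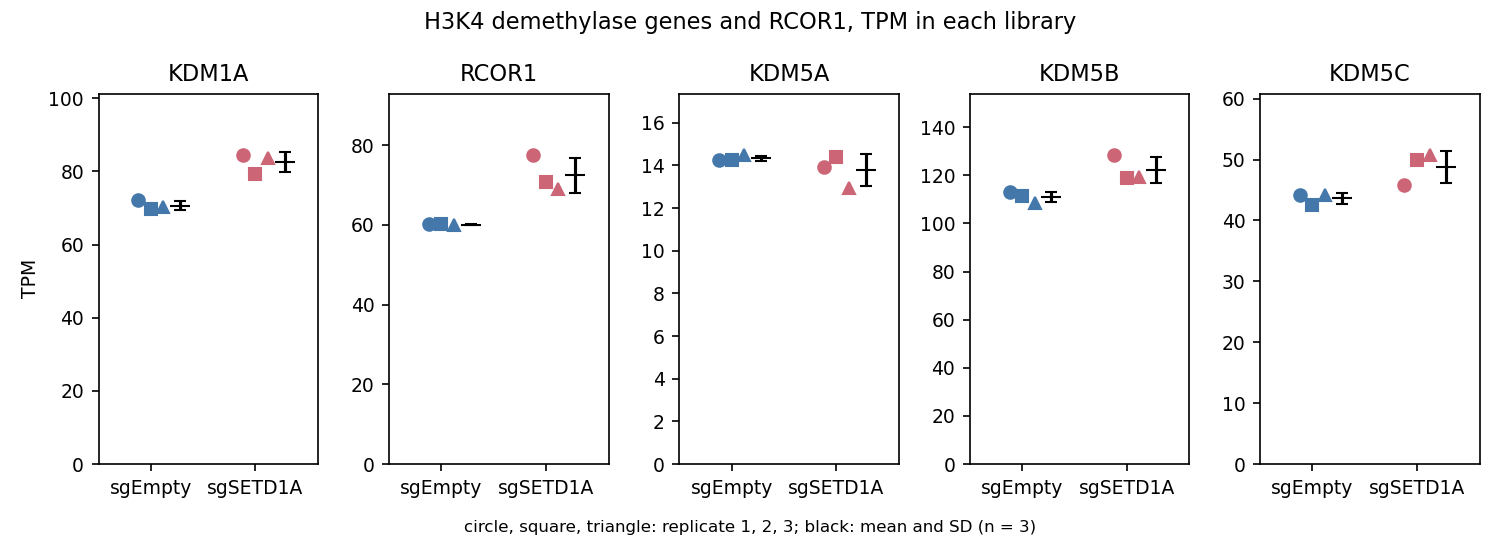
Transcript level (TPM, axis from 0, a separate scale per gene) of the 5 genes in each of the 3 sgEmpty (blue) and 3 sgSETD1A (red) libraries; symbols give the replicate, and black marks the mean and SD of 3 libraries. For KDM1A, RCOR1, KDM5B and KDM5C every sgSETD1A library lies above every sgEmpty library, as in 36.4% of all tested genes. KDM5A overlaps at about 14 TPM.

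In control cells the 5 transcripts differed widely in level. KDM5B was the most abundant at 111.0 ± 2.28 TPM (SD, n = 3), above 92.9% of all symbols in the table. KDM1A followed at 70.7 ± 1.25 TPM, RCOR1 at 60.1 ± 0.147 TPM and KDM5C at 43.7 ± 0.915 TPM (SD, n = 3 each). KDM5A was the lowest at 14.3 ± 0.122 TPM (SD, n = 3), above 62.7% of symbols and close to the 17.7 TPM of SETD1A. No neighbours in this order overlapped between libraries: the lowest KDM5C library held 42.6 TPM against 14.5 TPM in the highest KDM5A library. The order was the same in sgSETD1A cells, where KDM1A and RCOR1 came closest, with 79.4 TPM in the lowest KDM1A library and 77.5 TPM in the highest RCOR1 library.

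KDM1A, the flavin-dependent demethylase, measured 72.1, 69.8 and 70.2 TPM in sgEmpty replicates 1 to 3 and 84.4, 79.4 and 83.8 TPM in sgSETD1A replicates 1 to 3. All sgSETD1A libraries were above all sgEmpty libraries, a pattern found in this direction in 36.4% of tested genes. The group means were 70.7 ± 1.25 and 82.5 ± 2.76 TPM (SD, n = 3). The difference was 0.22 on the log2(TPM + 1) scale with an SE of 0.040 and a 95% interval of 0.13 to 0.31 (adjusted p = 0.00235 by limma). It was 0.14 log2 after median-ratio rescaling (adjusted p = 0.0258), over 1.5 times smaller, and 0.20 log2 without sgSETD1A replicate 1 (adjusted p = 0.00444), with the gene called in both.

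RCOR1, the CoREST scaffold, was almost constant in control cells at 60.2, 60.1 and 59.9 TPM and measured 77.5, 70.8 and 69.1 TPM in sgSETD1A replicates 1 to 3. The groups did not overlap, as in 36.4% of tested genes in this direction, and the highest value was that of sgSETD1A replicate 1. The difference was 0.26 log2 with an SE of 0.048 and a 95% interval of 0.16 to 0.37 (adjusted p = 0.00235 by limma). Without sgSETD1A replicate 1 it was 0.22 log2 (adjusted p = 0.00235), and after median-ratio rescaling 0.19 log2 (adjusted p = 0.0179). Its change was larger in size than that of 75.3% of tested genes, and that of KDM1A larger than 67.8%.

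The proportion of the 2 partners differed little between groups, and how common this is among pairs of genes was not tested. The ratio of RCOR1 to KDM1A TPM was 0.835, 0.862 and 0.854 in sgEmpty replicates 1 to 3 and 0.917, 0.892 and 0.824 in sgSETD1A replicates 1 to 3. These ranges overlap only through sgSETD1A replicate 3, with means of 0.850 ± 0.014 and 0.878 ± 0.048 (SD, n = 3). The ratios of sgSETD1A replicates 1 and 2 were above every control. Replicate 3 was the sgSETD1A library in which KDM1A was high and RCOR1 was lowest of its group. Against SETD1A itself the levels moved apart: KDM1A was 3.89 to 4.11 times as high as SETD1A in the controls and 7.05 to 9.02 times as high in sgSETD1A libraries, a description that includes the fall of the targeted transcript.

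**Figure D2:**
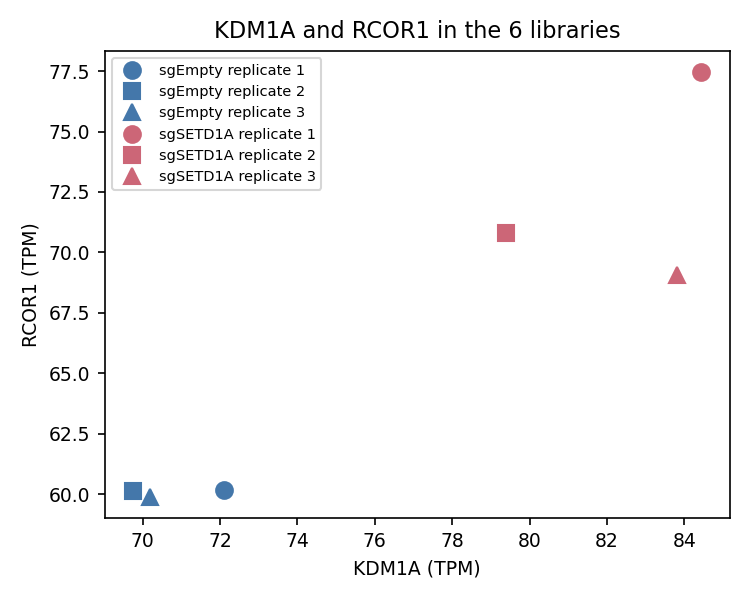
RCOR1 level against KDM1A level (both TPM, axes not from 0) in the 6 libraries; colour gives the group and symbol the replicate. The 3 sgEmpty libraries sit together near 60 TPM of RCOR1 and 70 TPM of KDM1A, and the 3 sgSETD1A libraries lie above and to the right, at 69.1 to 77.5 TPM of RCOR1 and 79.4 to 84.4 TPM of KDM1A.

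Promoter sequences are shown for KDM1A and RCOR1, the pair called higher under every setting, and for KDM5A, the gene called under none. They come from RefSeq (GRCh38.p14; the expression files use hg19) and run from 250 bases before to 50 bases after the annotated start, 5′ to 3′ on the strand of the gene. Capitals mark each GC box, the letters GGGCGG on either strand (overlapping matches counted), which 45% of 35114 promoters of that length hold.
KDM1A, chr1:23019218-23019517, plus strand: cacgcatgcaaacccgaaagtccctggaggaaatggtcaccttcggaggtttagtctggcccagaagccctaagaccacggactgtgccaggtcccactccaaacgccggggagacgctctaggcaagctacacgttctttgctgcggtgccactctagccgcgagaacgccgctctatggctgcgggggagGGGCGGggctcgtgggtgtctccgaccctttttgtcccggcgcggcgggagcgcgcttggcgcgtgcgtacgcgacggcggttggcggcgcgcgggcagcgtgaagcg
RCOR1, chr14:102592399-102592698, plus strand: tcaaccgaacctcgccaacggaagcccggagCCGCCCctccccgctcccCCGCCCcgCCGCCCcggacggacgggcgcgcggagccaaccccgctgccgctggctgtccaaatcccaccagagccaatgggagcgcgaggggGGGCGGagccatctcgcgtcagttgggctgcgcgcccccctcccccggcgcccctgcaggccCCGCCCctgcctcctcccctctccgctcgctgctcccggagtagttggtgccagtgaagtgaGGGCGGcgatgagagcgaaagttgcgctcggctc
KDM5A, chr12:389271-389570, minus strand: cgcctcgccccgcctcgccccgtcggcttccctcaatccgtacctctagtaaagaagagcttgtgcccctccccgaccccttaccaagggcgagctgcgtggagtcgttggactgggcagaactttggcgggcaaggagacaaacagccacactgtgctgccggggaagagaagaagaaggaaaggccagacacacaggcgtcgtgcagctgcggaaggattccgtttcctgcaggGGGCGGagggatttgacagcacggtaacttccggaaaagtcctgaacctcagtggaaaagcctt

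CpG, counted here in each window, is the base pair step that DNA methylation targets and that H3K4 methyltransferase complexes read through CXXC domains. KDM1A held 36 CpG, RCOR1 35, KDM5B 34, KDM5C 22 and KDM5A 20, beside a median of 14 over all promoters. Fewer CpG were held by 87.3% of promoters than by that of KDM1A, by 85.9% for RCOR1 and by 84.4% for KDM5B. For KDM5C and KDM5A, nearer the median, this was 62.3% and 58.8%. GC content was 54.3% for KDM5C, below the median of 58.7%, and 60% to 74.3% for the others. RCOR1 had 6 GC boxes, KDM5B 3, KDM1A and KDM5A 1 each and KDM5C 0, and 5.14% of all promoters had at least 5. Of 4 other motifs searched on both strands, TATAAA (in 11.5% of all promoters) and CACGTG (7.26%) matched none of the 5 windows. CCAAT (34.6% of promoters) matched RCOR1 once, and CCGGAAG, an ETS core (10.3%), matched KDM5A once. A match is a description of letters and not of a bound site.

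KDM5B, the most abundant of the Jumonji enzymes here, measured 112.9, 111.5 and 108.5 TPM in sgEmpty and 128.3, 118.9 and 119.3 TPM in sgSETD1A replicates 1 to 3. The groups did not overlap, as in 36.4% of tested genes in this direction. Replicates 2 and 3 of sgSETD1A lay closer to the controls than replicate 1 did. The difference was 0.14 log2 with an SE of 0.041 and a 95% interval of 0.045 to 0.23 (adjusted p = 0.0238 by limma). After median-ratio rescaling it was 0.059 log2 and not called (adjusted p = 0.338), and after quantile normalization 0.096 log2 and not called (adjusted p = 0.0906). Its call was also lost without sgEmpty replicate 2 (adjusted p = 0.0635) or 3 (0.0828), and it held without sgSETD1A replicate 1 at 0.10 log2 (0.0444).

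KDM5C, a demethylase gene on the X chromosome, measured 44.2, 42.6 and 44.2 TPM in sgEmpty and 45.8, 49.9 and 50.7 TPM in sgSETD1A. Here sgSETD1A replicate 1 was the lowest of its group and nearly met the controls, while replicates 2 and 3 were well above them. The difference was 0.16 log2 with an SE of 0.049 and a 95% interval of 0.047 to 0.27 (adjusted p = 0.0294 by limma). Without sgSETD1A replicate 1 it was 0.20 log2 (adjusted p = 0.00546), and leaving out any other library ended the call (adjusted p = 0.0542 to 0.108). After median-ratio rescaling it was 0.080 log2 and not called (adjusted p = 0.223).

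KDM5A measured 14.3, 14.3 and 14.5 TPM in sgEmpty and 13.9, 14.4 and 13.0 TPM in sgSETD1A. The groups overlapped, with sgSETD1A replicate 2 inside the control range and replicate 3 lowest. The difference was -0.056 log2 with an SE of 0.059 (adjusted p = 0.47 by limma), with a 95% interval of -0.19 to 0.076. That interval leaves out a rise as large as the estimate for KDM1A or RCOR1, but these changes were not tested against each other. KDM5A was called under none of the 14 alternatives (adjusted p = 0.122 to 0.872), and its value after median-ratio rescaling was -0.13 log2.

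The mix of the KDM5 transcripts changed little. Their summed level was 167.1 to 171.4 TPM in sgEmpty and 183.0 to 188.1 TPM in sgSETD1A. KDM5B made up 65.7 ± 0.68% of it in sgEmpty and 66.1 ± 1.8% in sgSETD1A, and KDM5C 25.8 ± 0.55% and 26.4 ± 1.8% (SD, n = 3). KDM5A took 8.33% to 8.67% of it in the controls and 7.08% to 7.87% after SETD1A targeting. The KDM5A share was lower in each sgSETD1A library, whereas the KDM5B and KDM5C shares overlapped between groups.

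**Figure D3:**
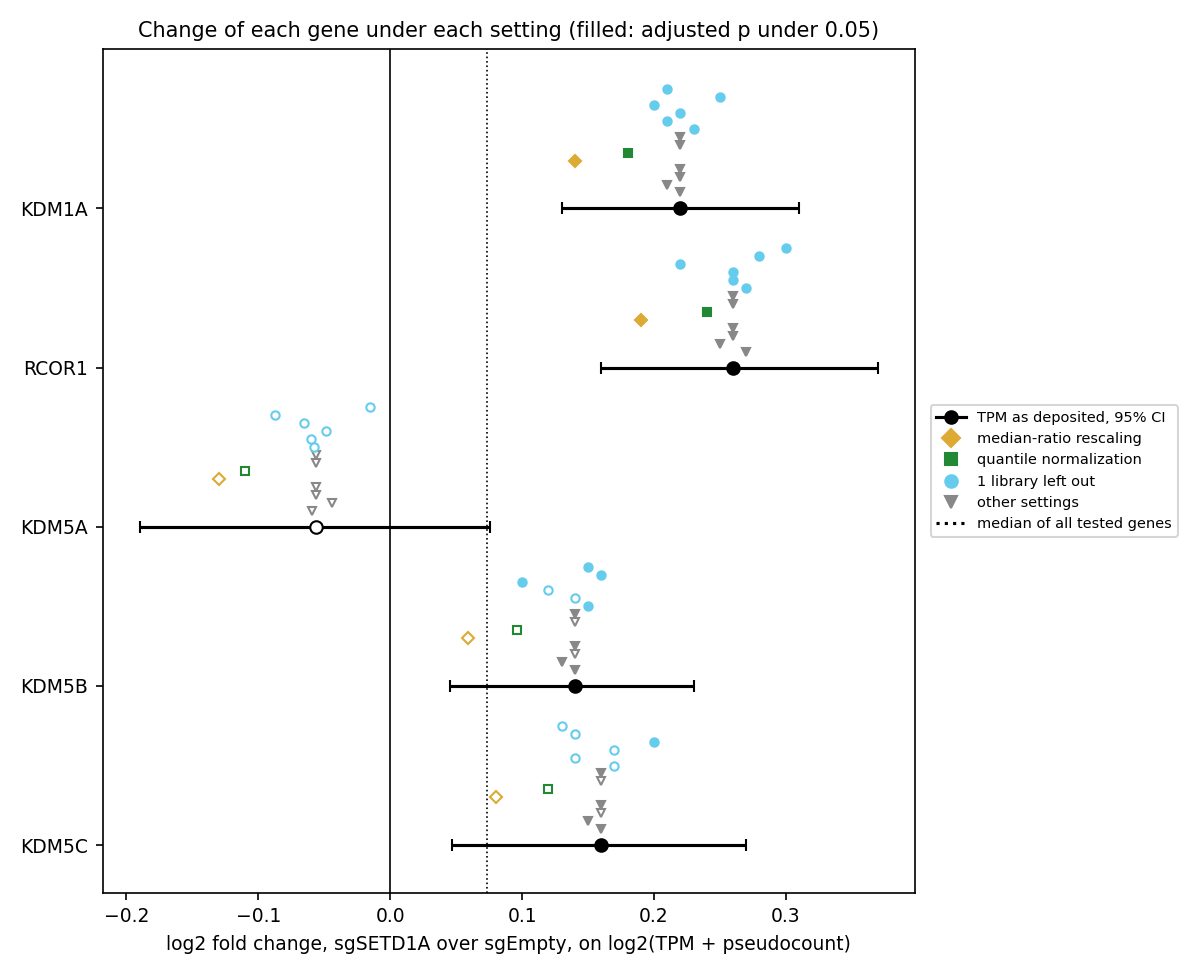
Change of each gene (log2 fold change, sgSETD1A over sgEmpty, on log2(TPM + pseudocount)) with TPM as deposited (black, 95% interval), after each rescaling, with 1 library left out and under the other settings, each setting on a line of its own above the gene; filled symbols had an adjusted p under 0.05, and the dotted line is the median of all tested genes (0.073). RCOR1 and KDM1A are filled throughout, KDM5B and KDM5C are open after both rescalings, and KDM5A is open throughout.

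Other demethylases of H3K4 were not called. Of 3 listed, 0 rose and 0 fell, beside 28% and 13.5% of all tested genes. The list median was 0.082 log2 beside 0.073 for all tested genes, and 1 of the 3 had an unadjusted p under 0.05 by limma. RIOX1 (listed as C14orf169), a Jumonji protein of the nucleolus, stood at 23.3 ± 1.34 and 25.6 ± 0.78 TPM (SD, n = 3). Its groups did not overlap, as in 36.4% of tested genes, at a difference of 0.13 log2 (adjusted p = 0.086 by limma). KDM2B, which also binds unmethylated CpG, stood at 14.1 ± 1.14 and 14.98 ± 0.436 TPM, and KDM1B, the paralog of KDM1A, at 12.7 ± 0.16 and 13.5 ± 1.06 TPM (SD, n = 3; adjusted p = 0.357 and 0.358). On the opposing side, 4 of 6 listed methyltransferase genes could be matched and tested, and SETD1A was the only one called, with a difference of -0.71 log2 with an SE of 0.071 (adjusted p = 9.13e-05 by limma). SETD1B, its paralog, stood at 16.4 ± 0.543 and 17.0 ± 0.229 TPM (SD, n = 3; adjusted p = 0.49). KMT2A (listed as MLL) changed by 0.014 and KMT2C (listed as MLL3) by 0.005 log2, neither of them called.

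Of 17 listed partners of the CoREST complex 14 were tested, 3 rose and 1 fell, no larger a share than the 28% and 13.5% of all tested genes; the list median was 0.059 log2. RCOR3, a paralog of RCOR1, was 13.0, 14.3 and 15.6 TPM in sgEmpty and 17.0, 17.7 and 17.2 TPM in sgSETD1A, a rise of 0.26 log2 with an SE of 0.068 (adjusted p = 0.0138 by limma). Its sgSETD1A libraries were all above its controls, as in 36.4% of tested genes. Its call was lost after median-ratio rescaling (0.19 log2, adjusted p = 0.0552) and with no filter (limma adjusted p = 0.0617). RCOR2, the other paralog, was low at 1.94 ± 0.224 and 2.54 ± 0.366 TPM (SD, n = 3) and was not called (adjusted p = 0.0793). ZNF217, a zinc finger oncoprotein found with the complex, rose by 0.20 log2 from 265.3 ± 2.51 to 304.4 ± 9.91 TPM (SD, n = 3; adjusted p = 0.00155). ZMYM3, a zinc finger subunit, rose by 0.17 log2 (adjusted p = 0.0156) and was not called after either rescaling or without sgEmpty replicate 2 or 3 or sgSETD1A replicate 3. The deacetylase genes HDAC1 and HDAC2, named after their values were seen, were not called, at -0.048 and 0.12 log2 (adjusted p = 0.243 and 0.0601). After median-ratio rescaling 1 partner rose and 2 fell, beside 1766 (14.9%) and 2333 of all 11885 tested genes.

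NuRD, a remodelling and deacetylase complex in which KDM1A can also sit, had 3 of 12 tested subunits higher and 1 lower, close to the 28% and 13.5% of all tested genes, with a median of 0.091 log2. The remodeller CHD3 rose from 98.1, 99.4 and 105.3 TPM to 113.6, 115.3 and 117.1 TPM, or by 0.19 log2 with an SE of 0.039 (adjusted p = 0.00423 by limma). CDK2AP1, a small subunit, rose by 0.17 log2 (adjusted p = 0.0127). This call was lost after median-ratio rescaling, with no filter (limma adjusted p = 0.0647) and without sgEmpty replicate 3. MBD3, which helps hold the complex together, was 26.7 to 27.1 TPM in sgEmpty but 20.0, 26.5 and 21.1 TPM in sgSETD1A, a change of -0.26 log2 (adjusted p = 0.0423). Its sgSETD1A replicate 2 was close to the controls, and its call was lost when any library other than that one was left out. The MBD3 call was also lost with no filter (limma adjusted p = 0.197) and without the limma trend (0.0742). MBD2, its paralog, changed by 0.14 log2 and was not called (adjusted p = 0.113). After median-ratio rescaling 1 subunit rose and 1 fell, beside 1766 (14.9%) and 2333 of all 11885 tested genes. The count of rises was 1 without sgEmpty replicate 3 and 5 without sgSETD1A replicate 1. Over all genes these fits called 2639 of 11888 and 3459 of 11874 higher.

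Genes of complexes that hold KDM5 enzymes held the largest rises among these lists of partners. Their counts were near those of all tested genes (28% higher, 13.5% lower): of 13 tested, 4 rose and 1 fell; the list median was 0.128 log2. ZMYND8, a chromatin reader that works with KDM5C and other KDM5 enzymes, was 86.1, 81.2 and 84.8 TPM in sgEmpty and 111.8, 113.1 and 111.9 TPM in sgSETD1A. The groups lay far apart relative to their spread, with a rise of 0.41 log2 with an SE of 0.037 (adjusted p = 5.24e-05 by limma). L3MBTL2, a reader in a Polycomb complex that can include KDM5C, rose from 14.2 ± 0.323 to 18.5 ± 0.505 TPM (SD, n = 3), or by 0.36 log2 (adjusted p = 8.12e-04). GATAD1, a protein found with KDM5A and SIN3B, was 54.0, 55.4 and 57.2 TPM in sgEmpty and 42.0, 43.7 and 41.8 TPM in sgSETD1A, a change of -0.38 log2 with an SE of 0.043 (adjusted p = 1.98e-04 by limma). SIN3B, the corepressor itself, changed by 0.21 log2 and was not called (adjusted p = 0.0594). It was called without sgSETD1A replicate 1 (0.30 log2, adjusted p = 0.004) and with a replicate block (adjusted p = 0.0342). The calls of ZMYND8, L3MBTL2 and GATAD1 held under all 14 alternatives. After median-ratio rescaling 2 of the 13 rose and 2 fell, beside 1766 (14.9%) and 2333 of all 11885 tested genes.

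Demethylases of other histone lysines moved both ways: of 15 tested, 3 rose and 3 fell, beside 28% and 13.5% of all tested genes; the list median was 0.074 log2. KDM3A, which acts on H3K9, rose from 32.9 ± 1.11 to 39.6 ± 2.01 TPM (SD, n = 3), or by 0.26 log2 (adjusted p = 0.00414). KDM8 (listed as JMJD5) was low at 2.53, 2.76 and 2.58 TPM and fell to 1.39, 1.87 and 1.52 TPM, a change of -0.49 log2 with an SE of 0.10 (adjusted p = 0.00528 by limma). HR, the hairless corepressor, changed by -0.27 log2 (adjusted p = 0.036) and PHF2, a PHD finger demethylase, by -0.17 log2 (adjusted p = 0.0343). Both of these calls were lost in 7 of 14 alternatives. After median-ratio rescaling 1 gene of the list rose and 3 fell, beside 1766 (14.9%) and 2333 of all 11885 tested genes. There was 1 rise without sgEmpty replicate 1 or 2 or sgSETD1A replicate 3, and 1 fall without sgEmpty replicate 1 or 3 or sgSETD1A replicate 1 or 3. Over all 11859 to 11893 tested genes, fits with 1 library left out called 2361 to 3459 higher and 1288 to 1616 lower.

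**Figure D4:**
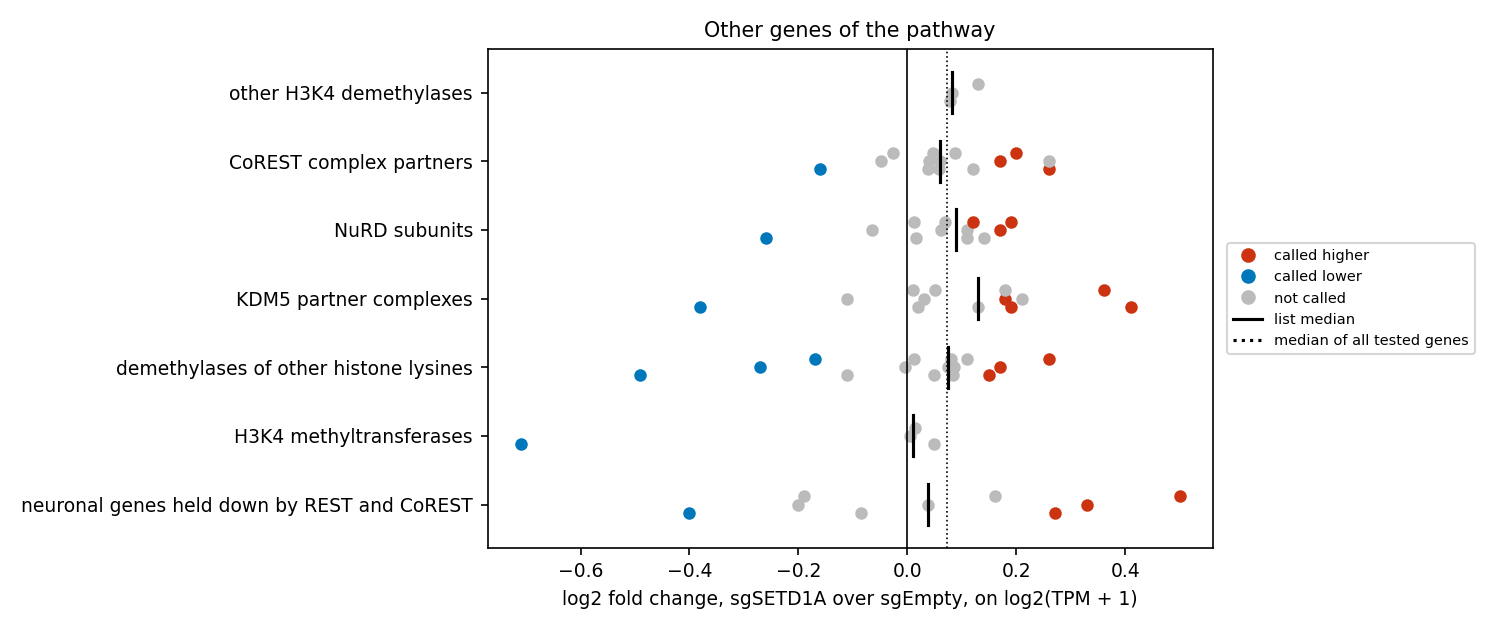
Change of each tested gene (log2 fold change, sgSETD1A over sgEmpty, on log2(TPM + 1)) in the 7 lists of related genes; red and blue points were called higher and lower, grey points were not called, black bars are list medians and the dotted line is the median of all tested genes. Most points lie between -0.2 and 0.3, and list medians lie between 0.009 and 0.128, near the 0.073 of all tested genes; the fall of SETD1A is the point at -0.71.

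Neuronal genes that REST and CoREST are known to hold down in other cell types varied widely in level. Of 20, 11 were under a mean of 1 TPM, 5 of them listed at 0 in every library, and 9 were above it. REST itself was 30.3 ± 0.175 and 31.7 ± 2.13 TPM (SD, n = 3; adjusted p = 0.403), a value chosen after it was seen. Of the 9 tested, 3 rose and 1 fell, near the all-gene shares of 28% and 13.5%; the list median was 0.038 log2. L1CAM, an adhesion molecule, was the most abundant at 78.1, 66.1 and 66.5 TPM in sgEmpty and 81.0, 84.0 and 89.6 TPM in sgSETD1A, a rise of 0.27 log2 with an SE of 0.067 (adjusted p = 0.0101 by limma). The potassium channel gene KCNH2 rose by 0.33 log2 from 2.08 ± 0.133 to 2.86 ± 0.283 TPM (SD, n = 3; adjusted p = 0.0226). SNAP25, of the synaptic fusion machinery, rose by 0.50 log2 (adjusted p = 0.039) although its groups overlapped at 1.82 to 2.64 and 2.64 to 4.87 TPM. SCG2, a granule protein, changed by -0.40 log2 (adjusted p = 0.0462), from 3.24 ± 0.215 to 2.26 ± 0.631 TPM (SD, n = 3). After median-ratio rescaling 1 of the 9 rose and 4 fell, beside 1766 (14.9%) and 2333 of all 11885 tested genes. Leaving out sgEmpty replicate 3 or sgSETD1A replicate 2 left 1 rise, and leaving out sgEmpty replicate 1 or 2 or sgSETD1A replicate 1 or 2 left 0 falls. Such fits called 2361 to 3459 higher and 1288 to 1616 lower over all 11859 to 11893 tested genes. The calls of SNAP25 and KCNH2 each changed when 4 of the 6 libraries were left out in turn, and that of SCG2 when 5 were. KCNH2 was also not called after median-ratio rescaling or quantile normalization (limma adjusted p = 0.0563 and 0.104), nor was SNAP25 (0.0634 and 0.0705). With no filter the calls of L1CAM (0.0889), SNAP25 and SCG2 were lost. Those of SNAP25 and SCG2 were lost without the limma trend too, and that of SCG2 with a pseudocount of 0.1.

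The genes with the most similar profiles were found by the distance between centred log2(TPM + 1) values over the 6 libraries, where 0 would be an identical profile. Nearest to KDM1A were ANP32A, a histone-binding inhibitor of acetylation (distance 0.0235), STT3B, of protein glycosylation (0.0331), and FHDC1 (0.0347). Nearest to RCOR1 were AK4, a mitochondrial adenylate kinase (0.0319), SDCBP, a scaffold protein (0.0466), and EIF4EBP2, a repressor of translation (0.0471). KIAA0100 (0.0267) and TIPARP (0.0294) were among those nearest to KDM5B. For KDM5C they were CTDSP1 (0.0243), ZNF273 (0.0338) and CDK11B (0.0357), and for KDM5A IDS (0.0208), ZFP3 (0.0478) and PAPD5 (0.0483). CDK11B has a near-identical neighbouring copy, so its value is uncertain. Among the 11885 genes ranked this way, RCOR1 was in place 870 from KDM1A and KDM1A in place 404 from RCOR1 (distance 0.129), and KDM5B was in place 863 from KDM1A (0.128).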

How the data were processed

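The authors deposited TPM values for 6 RNA libraries, made with a stranded mRNA kit per the labels, and raw read counts per guide for the pool, from which only guide names and totals were used. Per the submitters' processing notes, bcl2fastq 2.20.0, STAR 2.6.0c, RSEM 1.3.1 and hg19 were used, with no step named. An unnamed row holding each column's total (1000000) was left out. TPM keeps no depth, so no count test was run; the pool had 10145466 and 10255022 reads. Groups and replicate numbers came from sample titles.

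Changes were fitted with limma 3.58.1 (R 4.3.3), using its trend option, to log2(TPM + 1) wherever the 6-library mean reached 1 TPM; this scale understates changes of low genes. Intervals are 95%. The fit was also run on simulated data with few changed genes and no common shift. That setting differs from these libraries, so it cannot speak for calls that a common shift moves. Median-ratio factors came from genes above 0 in all libraries. Older symbols were matched through RefSeq synonyms; KMT2B and KMT2D share theirs and were not analysed here. Named genes were the 5 genes, SETD1A, up to 4 tested genes of largest change in each of 7 lists, and the 3 nearest profiles per gene. Genes and lists were chosen with earlier results of these data known. Some single genes are not reported here.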

Additional observations from a re-analysis of the deposited data

How the results depend on the processing

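The changes of the 5 genes, the counts of called genes and the changes of the other named genes chosen by rule were recomputed under 14 alternatives, of which 6 left out a library; low genes such as RCOR2, JMJD5, SNAP25, SCG2 and KCNH2 had 13, since a mean of at least 5 TPM removes them. Marker sums, ratios, shares and genes named after their values were seen were not recomputed. The signs of the 5 genes held in all of them. KDM1A and RCOR1 stayed called, at 0.14 to 0.25 and 0.19 to 0.30 log2. KDM5B lost its call with no filter (0.14 log2; limma adjusted p = 0.0682), without the limma trend (0.14; 0.0606), on median-ratio rescaling (0.059; 0.338) and on quantile normalization (0.096; 0.0906), and KDM5C with no filter (0.16; 0.0773), without the trend (0.16; 0.0511) and after these rescalings (0.080; 0.223, and 0.12; 0.0659). With 1 library left out KDM5B ran from 0.10 to 0.16 log2 and KDM5C from 0.13 to 0.20. The cause was not tested. Genes called higher fell from 3327 to 1766 on median-ratio rescaling and 2142 on quantile normalization, beside 2333 and 2056 called lower (1605 with TPM as deposited). Of 70 genes tested in the 7 lists 16 were higher and 8 lower, beside 28% and 13.5% of all 11885 tested genes. These list counts were 6 and 13 on median-ratio rescaling, and 10 and 12 on quantile normalization. With no filter 4 of 85 were lower, beside 1201 of 19035 genes. Without the trend 5 of 70 were lower, beside 1486 of 11885. With 1 library left out 9 to 19 of 70 were higher and 3 to 6 lower. Over all genes these fits called 2361 to 3459 higher and 1288 to 1616 lower, of 11859 to 11893 tested. Of the other named genes 15 lost a call and 3 gained one somewhere.

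Deviations from the group means correlated at r = 0.0845, -0.104 and 0.169 between same-numbered replicates 1, 2 and 3. Pairs of different numbers ran from -0.21 to 0.139. With 3 libraries per group these values cannot show whether the number marks a pairing, and the main fit did not use it. With a replicate block 3103 genes were higher and 1539 lower, and the changes were 0.22 log2 for KDM1A (limma adjusted p = 0.00506), 0.26 for RCOR1, 0.14 for KDM5B, 0.16 for KDM5C (0.0444) and -0.056 for KDM5A. TPM keeps no depth, so no limit from depth is given.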
